A study of Canis lupus familiaris with 32 samples.

Results

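The chemokine genes CCL5, CCL19, CXCL10, CXCL12 and XCL1 were followed in allergen-challenged dog skin. These 5 genes were chosen by name, as chemokines that recruit T cells or are made by stromal cells, out of 17107 genes in the authors' deposited table. Each was linked to exactly 1 probe set of the array. Expression was measured in skin biopsies from 8 Maltese-beagle dogs with atopic dermatitis, 5 males and 3 females aged 5.5 to 10.5 years. All of the dogs had been sensitized through the skin to the house dust mite Dermatophagoides farinae and were picked because an earlier challenge gave them acute lesions. Patches were worn on the lateral thorax, and each dog gave a 6 h control under mineral oil alone and mite-patch biopsies at 6 h, 24 h and 48 h, so the 32 arrays form 4 groups of 8. The control group is of 6 h only, which means that the 24 h and 48 h comparisons change the time as well as the allergen, and the dogs carry the sensitization in every group, the control included.

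Chemokines are small secreted proteins that bind G-protein-coupled receptors on leukocytes and guide their migration into and through tissue. Some, such as CCL5, CXCL10 and XCL1, are made mainly by activated immune or tissue cells during inflammation, while CCL19 and CXCL12 are also made by resting stromal cells and organise where leukocytes settle. In humans and mice CCL5 binds CCR1 and CCR3 among other receptors, CCL19 binds CCR7, CXCL10 binds CXCR3, CXCL12 binds CXCR4 and the scavenging receptor ACKR3 (CXCR7 in the authors' table), and XCL1 binds XCR1.

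Whole skin was measured, so a lower or higher signal cannot be told apart as a change in the number of cells of a type or in the RNA per cell. Levels are log2 signals as deposited, given as mean ± SD over dogs, and changes are log2 differences within dogs from limma with Benjamini-Hochberg adjustment over all 42860 probe sets tested. The median log2 signal of the 32 arrays lay between 4.63 and 4.90. CCL19, CXCL10 and CXCL12 exceeded their array's median on all 32 arrays, CCL5 on 23 and XCL1 on 2, so XCL1 was read near the bottom of the signal range. The mean of 9 skeletal muscle markers separated 9 muscle-rich arrays from the other 23, with 5 of the rich arrays at 6 h after the mite, 2 at 24 h, none at 48 h and 2 among the controls. The beta-actin 3′ minus 5′ signal, a measure of RNA length, was 2.78 ± 0.48 at 6 h after the mite against 2.27 ± 0.32 in the control and was higher in 7 of 8 dogs. At 48 h it averaged 1.79 ± 0.29, with each of the 8 dogs below its own control. The muscle mean was 3.61 ± 0.08 at 48 h against 5.58 ± 2.03 in control skin, again with each of the 8 dogs below its control. Both measures moved with the 6 h and the 48 h groups.

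At 6 h CXCL12 was higher and CCL19 lower in mite skin than in control skin. At 24 h CCL5, CCL19 and CXCL10 were higher, and at 48 h CCL5, CCL19 and XCL1 were. At 6 h 1 of the 5 chemokines rose and 1 fell, where 0.275% of the whole array rose and 2.62% fell. By 24 h 3 rose and 0 fell, where 2.97% of the array's probe sets rose and 5.22% fell. The 48 h biopsies had 3 chemokines that rose and 0 that fell, where 10.6% rose and 9.09% fell. The median change of the 5 genes was 0.22 at 6 h, 1.41 at 24 h and 1.09 at 48 h, and over all probe sets it was 0.01, -0.03 and -0.02. The 5 genes and all lists were chosen with earlier results of these data known. The shares of the whole array are therefore a background and not a test of these genes.

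**Figure D1:**
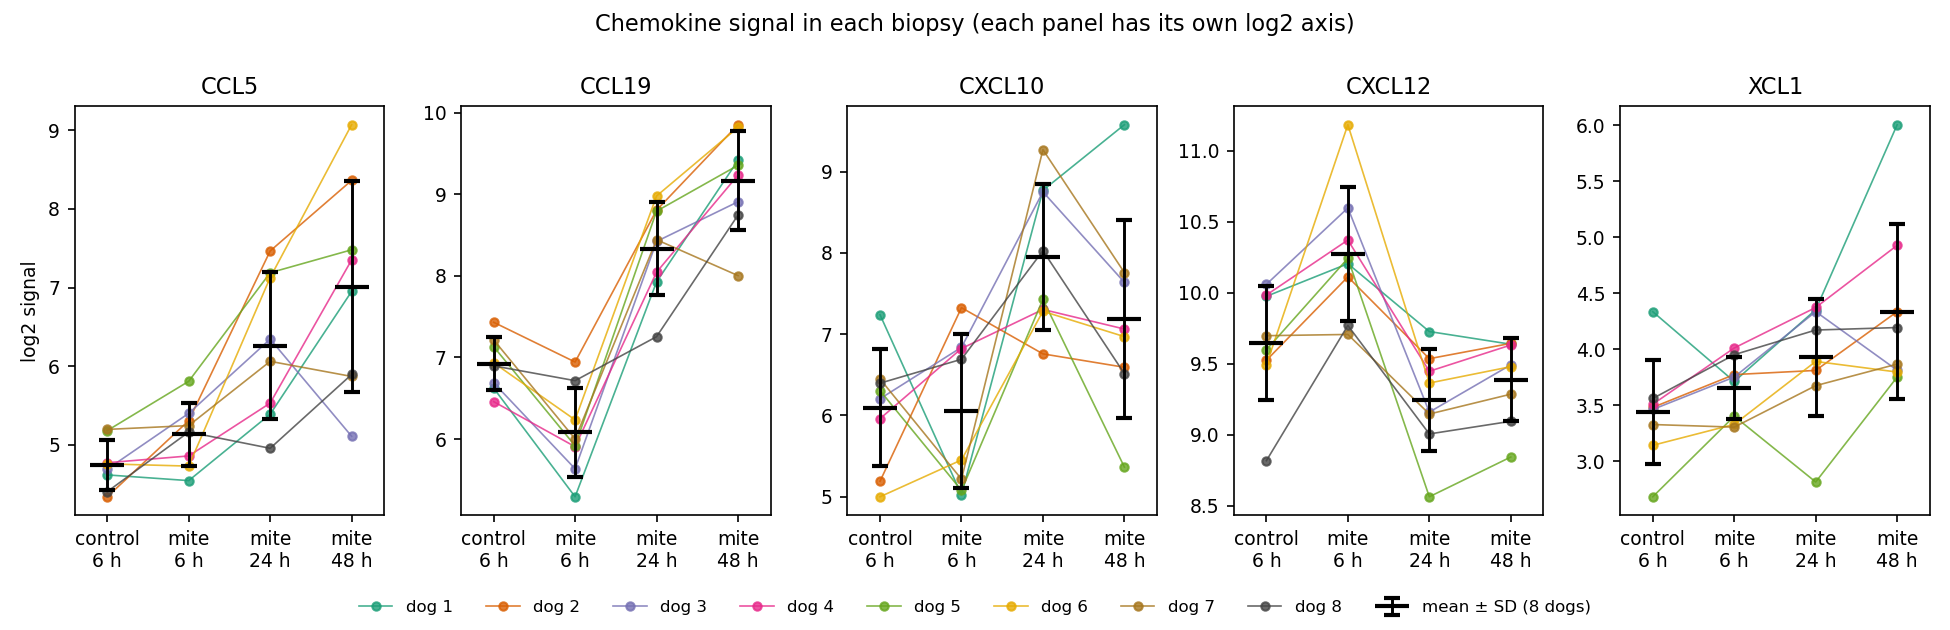
Log2 signal of each chemokine (vertical axis, separate in each panel) in the control and at 6 h, 24 h and 48 h after the mite patch, with 1 coloured line per dog and black bars for the mean ± SD of 8 dogs. CCL19 dips at 6 h to 6.08 and reaches 9.17 at 48 h, while CXCL12 is highest at 6 h in all 8 dogs.

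CCL5, also called RANTES, attracts T cells, monocytes and eosinophils. Its log2 signal averaged 4.74 ± 0.32 in the control (lowest 4.34, median 4.72, highest 5.19) and 5.13 ± 0.41 at 6 h (4.54, 5.20 and 5.81). It averaged 6.26 ± 0.93 at 24 h (4.95, 6.20 and 7.47) and 7.01 ± 1.34 at 48 h (5.11, 7.15 and 9.07). At 24 h and again at 48 h, 7 of 8 mite biopsies exceeded the highest control, so the groups overlapped through 1 biopsy each time, from dog 8 at 24 h and dog 3 at 48 h. CCL5 rose by 1.51 at 24 h (SE 0.35, adjusted p = 0.00738) and by 2.27 at 48 h (4.82-fold, 95% interval 1.54 to 2.99, adjusted p = 4.11e-05), and it was higher in 8 of 8 dogs at both times. At 6 h the difference was 0.39 (adjusted p = 0.648).

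Dogs varied widely in their CCL5 change. At 48 h the signal was 4.32 above the control in dog 6 and 4.03 above it in dog 2, against 0.42 in dog 3 and 0.67 in dog 7. Dogs 3 and 7 were also the only dogs with a lower signal at 48 h than at 24 h. Between 24 h and 48 h the mean difference was 0.75 (adjusted p = 0.331), which did not pass.

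CCL19 guides CCR7-bearing T cells and mature dendritic cells towards lymphoid tissue. Its log2 signal averaged 6.92 ± 0.33 in the control (lowest 6.46, median 6.92, highest 7.43) and 6.08 ± 0.54 at 6 h (5.29, 5.96 and 6.94). It averaged 8.33 ± 0.57 at 24 h (7.26, 8.43 and 8.98) and 9.17 ± 0.61 at 48 h (8.00, 9.30 and 9.85). Every 48 h biopsy lay above every control biopsy and above every 6 h biopsy, and every 24 h biopsy lay above every 6 h biopsy. Over all probe sets the groups did not overlap for 3.49% at 48 h against the control, 1.19% at 24 h against 6 h and 4.48% at 48 h against 6 h.

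CCL19 fell by 0.84 at 6 h (SE 0.21, adjusted p = 0.0272), with a lower value in 8 of 8 dogs and 6 mite biopsies below the lowest control. It rose by 1.41 at 24 h (2.66-fold, adjusted p = 0.000157) and by 2.25 at 48 h (4.74-fold, adjusted p = 8.31e-08), each in 8 of 8 dogs. The direct comparison of 48 h with 6 h gave 3.09 (8.50-fold, adjusted p = 1.77e-09), and 18 of the 42860 probe sets had a larger rise. The step between 24 h and 48 h was 0.83 (adjusted p = 0.0282), and dog 7 was the 1 dog that went the other way, by -0.44.

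CXCL10, an interferon-induced ligand of CXCR3 on activated T cells, had its highest mean at 24 h. Its log2 signal averaged 6.09 ± 0.72 in the control (lowest 5.00, median 6.26, highest 7.24) and 6.06 ± 0.95 at 6 h (5.02, 6.07 and 7.33). It averaged 7.95 ± 0.90 at 24 h (6.76, 7.73 and 9.27) and 7.18 ± 1.22 at 48 h (5.36, 7.02 and 9.58). At 24 h 7 of 8 mite biopsies exceeded the highest control, while at 48 h the groups overlapped broadly, with 3 above it.

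CXCL10 rose by 1.86 at 24 h (3.62-fold, SE 0.41, adjusted p = 0.0049) in 8 of 8 dogs, and 14 probe sets of the whole array had a larger rise. At 48 h it was 1.09 above the control in the mean, higher in 7 of 8 dogs, and did not pass (adjusted p = 0.0607). It passed there without dog 5 (1.38, adjusted p = 0.0281), the dog whose 48 h value was 0.94 below its control (difference -0.94). The 48 h and 24 h groups differed by -0.76 (adjusted p = 0.422), so the highest mean at 24 h was not separated from 48 h by the test.

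At 6 h the CXCL10 differences of single dogs ran from -2.22 in dog 1 to 2.14 in dog 2, with 5 dogs higher, 3 lower and a mean of -0.04 (adjusted p = 0.98). The sign of that mean turned without dog 1 (0.27), dog 5 (0.13) or dog 7 (0.13). Dog 2 had its highest CXCL10 signal at 6 h and dog 1 at 48 h, and the other 6 dogs had theirs at 24 h.

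CXCL12, a stromal chemokine that retains CXCR4-bearing leukocytes and precursor cells in tissue, followed another course. Its log2 signal averaged 9.64 ± 0.40 in the control (lowest 8.82, median 9.65, highest 10.06) and 10.27 ± 0.47 at 6 h (9.71, 10.22 and 11.18). It averaged 9.24 ± 0.36 at 24 h (8.56, 9.26 and 9.73) and 9.39 ± 0.29 at 48 h (8.84, 9.49 and 9.64). At 6 h 6 of 8 mite biopsies exceeded the highest control, and every 48 h biopsy lay below every 6 h biopsy.

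CXCL12 rose by 0.63 at 6 h (1.55-fold, SE 0.14, adjusted p = 0.0161), with a higher value in 8 of 8 dogs that ran from 0.01 in dog 7 to 1.69 in dog 6. Against 6 h it fell by 1.03 at 24 h (2.04-fold, adjusted p = 6.02e-05) and by 0.88 at 48 h (adjusted p = 4.06e-05), in 8 of 8 dogs each time. Against the control the differences were -0.40 at 24 h (adjusted p = 0.0828) and -0.25 at 48 h (adjusted p = 0.23), each with 6 of 8 dogs lower. The 24 h difference passed without dog 6 (-0.44, adjusted p = 0.0383).

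XCL1, or lymphotactin, is made mainly by activated CD8 T cells and natural killer cells and acts on XCR1-bearing dendritic cells. Its log2 signal averaged 3.44 ± 0.46 in the control (lowest 2.68, median 3.47, highest 4.33) and 3.65 ± 0.28 at 6 h (3.31, 3.73 and 4.01). It averaged 3.93 ± 0.52 at 24 h (2.82, 4.03 and 4.37) and 4.34 ± 0.78 at 48 h (3.75, 4.03 and 6.00). The groups overlapped at all times, and the 2 arrays above their median were both at 48 h, at 6.00 in dog 1 and 4.93 in dog 4.

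XCL1 rose by 0.90 at 48 h (1.86-fold, SE 0.17, adjusted p = 0.00034), with a higher value in 8 of 8 dogs. At 24 h it was 0.49 above the control, also in 8 of 8 dogs, and did not pass (adjusted p = 0.072). It passed at 24 h without dog 1 (0.56, adjusted p = 0.00805) or without the 24 h array of dog 5 (0.57, adjusted p = 0.0383), which held the lowest XCL1 value of its group and the lowest median of all arrays. The largest share of the spread of XCL1 lay between dogs, with 46.2% of its sum of squares against 30.4% between groups.

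**Figure D2:**
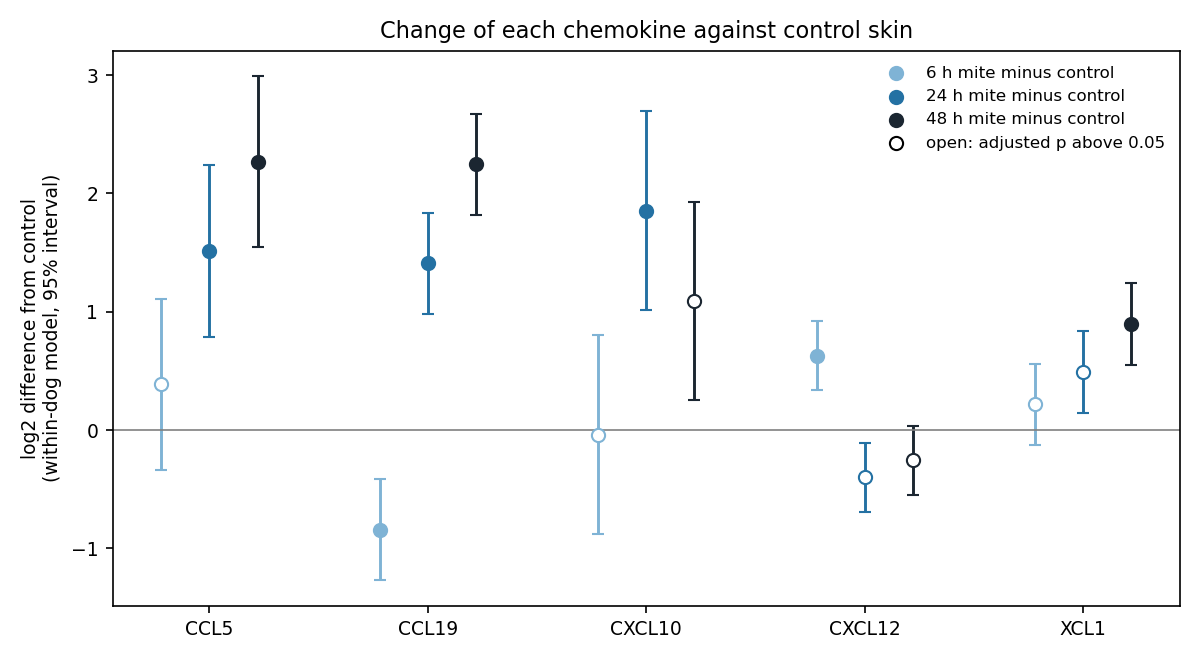
Log2 difference from control skin (vertical axis) of each chemokine at 6 h, 24 h and 48 h after the mite patch, with 95% intervals from the within-dog model and open points where the adjusted p was above 0.05. CCL19 is at -0.84 at 6 h and 2.25 at 48 h, CXCL10 is at 1.86 at 24 h, and CXCL12 passes at 6 h alone of the 3 times.

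The comparisons between times test whether the changes against the shared control differ. Between 6 h and 24 h 3 of the 5 genes rose and 1 fell, where 8.45% of all probe sets rose and 8.85% fell. CCL5 was 1.13 higher at 24 h than at 6 h (adjusted p = 0.0282), CCL19 2.25 higher (adjusted p = 1.94e-06) and CXCL10 1.89 higher (adjusted p = 0.00242), and CXCL12 was the gene that fell. Between 24 h and 48 h CCL19 alone of the 5 genes rose and none fell, where 2.37% of all probe sets rose and 0.184% fell. Over the whole span from 6 h to 48 h 4 rose and CXCL12 fell, where 15.8% of all probe sets rose and 13.6% fell. There CCL5 was 1.88 higher (adjusted p = 0.000233), CXCL10 1.13 higher (adjusted p = 0.0383) and XCL1 0.68 higher (adjusted p = 0.00326). Without the 9 muscle-rich arrays, which left 3 arrays at 6 h, 2 of these 10 calls between times still passed, namely CCL19 and CXCL12 from 6 h to 48 h.

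The 2 calls at 6 h and some calls between times rested on particular dogs. CCL19 at 6 h no longer passed without dog 1 (adjusted p = 0.102), dog 2 (0.0571), dog 3 (0.11), dog 5 (0.0562) or dog 6 (0.054). CXCL12 at 6 h no longer passed without dog 3 (0.0552), dog 6 (0.0623) or dog 8 (0.0548). CCL5 did not pass from 6 h to 24 h without dog 2 (0.0711), dog 5 (0.0718) or dog 6 (0.0575), or without the 24 h array of dog 5 (0.0536). CCL19 did not pass from 24 h to 48 h without dog 1 (0.106), dog 2 (0.101), dog 4 (0.123) or dog 5 (0.0824). CXCL10 did not pass from 6 h to 48 h without dog 1 (0.64 higher, adjusted p = 0.219), dog 3 (0.0654), dog 6 (0.0844) or dog 7 (0.112). The changes of CCL5, CCL19 and CXCL10 at 24 h and of CCL5, CCL19 and XCL1 at 48 h against the control passed without each dog in turn.

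**Figure D3:**
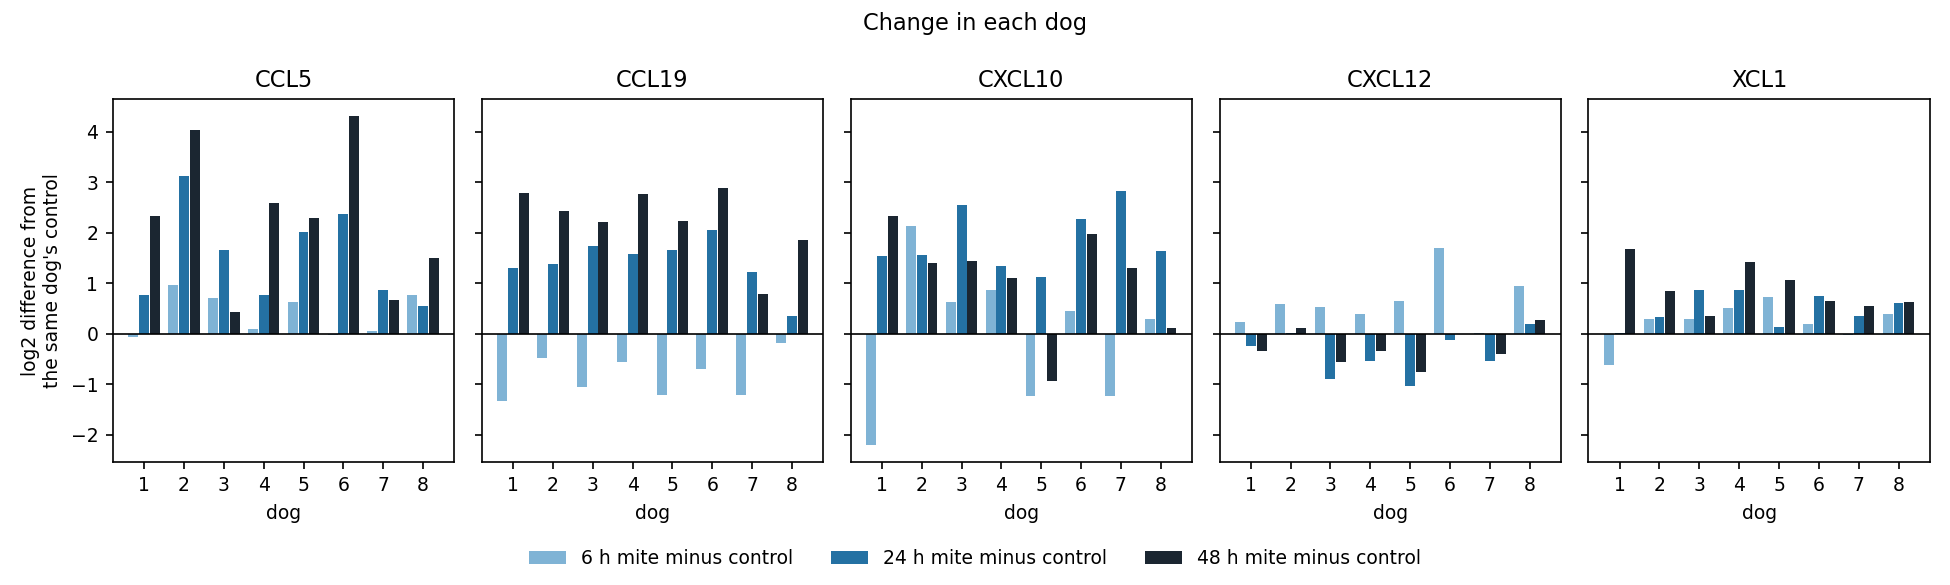
Log2 difference from the same dog's control (vertical axis) for dogs 1 to 8 (horizontal axis) at 6 h, 24 h and 48 h after the mite patch, with 1 bar per array. CCL19 bars point down at 6 h and up later in every dog, CXCL10 bars at 6 h point both ways, and CCL5 at 48 h runs from 0.42 in dog 3 to 4.32 in dog 6.

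The 6 h results stood beside the muscle and actin measures. In the 5 muscle-rich arrays at 6 h CXCL12 ran from 10.11 to 11.18 with a median of 10.24, and in the other 3 from 9.71 to 10.37 with a median of 9.77. CCL19 at 6 h ran from 5.29 to 6.94 with a median of 5.92 in the muscle-rich arrays and from 5.91 to 6.72 with a median of 6.00 in the others. Without the 9 muscle-rich arrays CCL19 at 6 h was -0.19 and CXCL12 0.44, both with an adjusted p = 1. Only dog 8 had neither its 6 h nor its control array among the muscle-rich ones, and its differences were -0.18 for CCL19 and 0.95 for CXCL12. With the actin difference as a covariate CCL19 at 6 h was -0.46 (adjusted p = 0.571) and CXCL12 0.64 (adjusted p = 0.318). The part of muscle content or RNA length in these changes was not tested.

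The later rises were read against the same measures. With the actin covariate the 48 h differences were 1.79 for CCL5 (adjusted p = 0.00611), 1.88 for CCL19 (adjusted p = 2.61e-05) and 0.68 for XCL1 (adjusted p = 0.0291). With the muscle covariate they were 2.24 for CCL5, 2.12 for CCL19 and 0.88 for XCL1, and all 3 passed. At 24 h the actin covariate gave 1.32 for CCL5 (adjusted p = 0.0211), 1.26 for CCL19 (adjusted p = 0.000297) and 1.74 for CXCL10 (adjusted p = 0.0128).

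**Figure D4:**
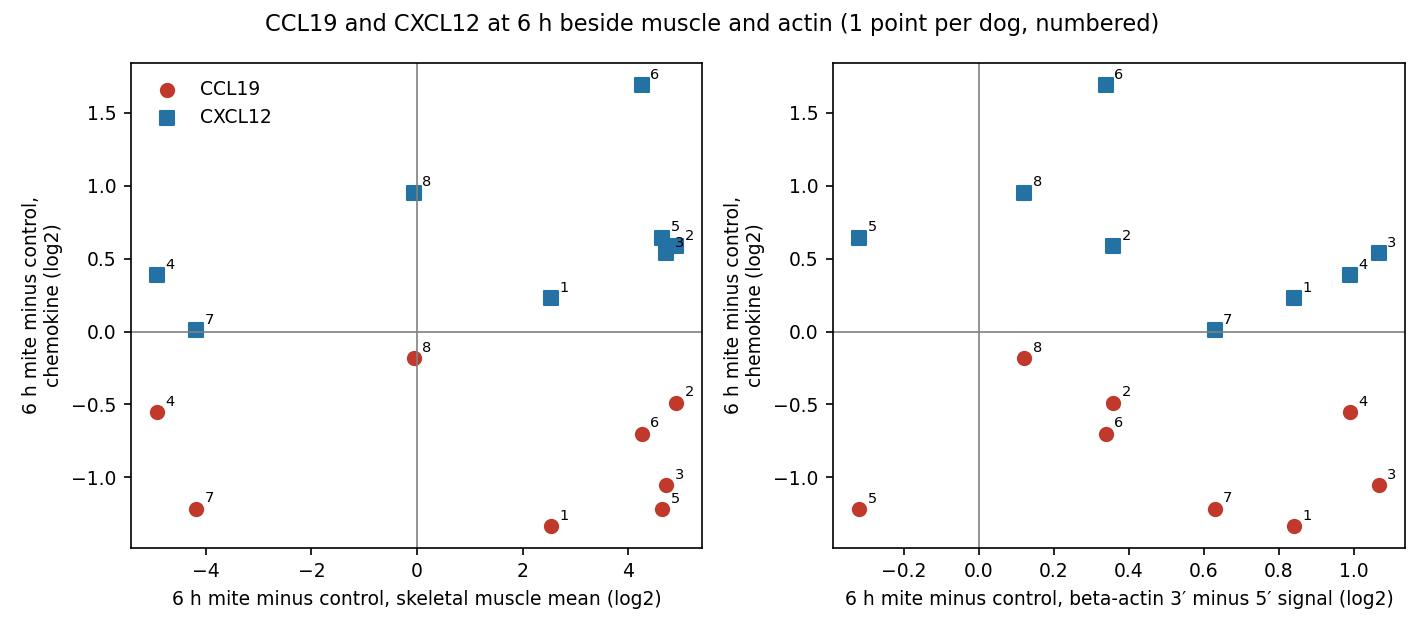
Difference between 6 h mite and control skin for CCL19 and CXCL12 (vertical axis, log2) against the same dog's difference in the muscle marker mean (left) and in the actin 3′ minus 5′ signal (right), with points numbered by dog. All CCL19 points lie below 0 and all CXCL12 points above it, on both sides of the muscle axis.

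The 5 genes also differed in how closely dogs agreed. The 4 groups took up 85.7% of the sum of squares of CCL19, 55.8% for CCL5, 54.3% for CXCL12 and 43.7% for CXCL10. What remained after group and dog was 8.00% for CCL19 and 36.7% for CXCL10. CCL19 was highest at 48 h in 7 of 8 dogs, CCL5 and XCL1 in 6 each, and CXCL12 at 6 h in 8 of 8.

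Across the 8 dogs, the 48 h changes of 2 chemokines were compared for all 10 pairs. The strongest relation was between CCL5 and CCL19, with Pearson r = 0.663 (exact permutation p = 0.0684, adjusted p = 0.684) and Spearman rho = 0.833 (exact permutation p = 0.0154, adjusted p = 0.154). Without dogs 6 and 3, the farthest from the median CCL5 change, r was 0.738. None of the 10 pairs passed after adjustment. Over all 32 arrays, with each dog's mean subtracted, CCL5 and CCL19 had r = 0.81 and CCL19 and CXCL12 had r = -0.74, as a description in which all arrays of a group share the same challenge.

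Among the receptors of these chemokines 5 of the 9 listed symbols had a linked probe set. None passed at 6 h or 24 h, and at 48 h 3 rose and 1 fell. CXCR4, which binds CXCL12, averaged 5.87 ± 0.75 at 48 h and 5.13 ± 0.32 in the control, and rose by 0.75 (adjusted p = 0.00438, higher in 7 of 8 dogs). CXCR7, which takes up CXCL12 without classical signalling, averaged 8.77 ± 0.31 at 48 h and 9.41 ± 0.38 in the control, and fell by 0.64 (adjusted p = 0.0162, lower in 7 of 8 dogs). The CXCR7 fall did not pass without dog 3 (-0.56, adjusted p = 0.0665) or dog 5 (-0.59, adjusted p = 0.0509), nor with the muscle mean as a covariate (-0.51, adjusted p = 0.0718).

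CCR1, a receptor of CCL5, rose by 0.43 at 48 h (adjusted p = 0.00428, 8 of 8 dogs), to 3.97 ± 0.26 at 48 h against 3.54 ± 0.08 in the control. CCR7, the receptor of CCL19, rose by 0.24 (adjusted p = 0.0125, 7 of 8 dogs), a call lost without dog 2 (0.21, adjusted p = 0.0663) or without the muscle-rich arrays (0.25, adjusted p = 0.0586). XCR1, the receptor of XCL1, differed by 0.10 (adjusted p = 0.543). CCR1, CCR7 and XCR1 averaged under the array medians at 48 h, which limits their precision, and the filter on dim probe sets removed them. With the actin covariate CXCR4 (adjusted p = 0.058), CXCR7 (0.0624) and CCR1 (0.107) no longer passed. CCR3, another receptor of CCL5, has a value in the authors' deposited table alone, which lists a 48 h fold of 2.4 with p below 0.001. CXCR3, the receptor of CXCL10, has a 48 h fold of 1.1 in the authors' deposited table, which did not pass (their adjusted p = 0.201).

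Of 34 other chemokine ligands listed, 16 had a linked probe set. At 6 h 1 rose and 1 fell, at 24 h 3 rose and at 48 h 7 rose, with no fall at the later times. Of all probe sets 0.275%, 2.97% and 10.6% rose at 6 h, 24 h and 48 h, and 2.62%, 5.22% and 9.09% fell. CCL17, which attracts CCR4-bearing T helper cells, averaged 9.77 ± 2.12 at 48 h and 4.06 ± 0.19 in the control, a rise of 5.71 (adjusted p = 1.97e-07). CCL24, an eosinophil attractant, rose by 2.52 (adjusted p = 6.63e-08), CCL23 by 1.80 (adjusted p = 0.000108) and CCL13, which attracts monocytes and eosinophils, by 1.10 (adjusted p = 7.79e-05). At 24 h CCL17 rose by 3.84, CCL24 by 1.83 and CCL13 by 0.95. At 6 h CCL24 rose by 0.98 (adjusted p = 0.02) and CXCL16, a ligand of CXCR6, fell by 0.89 (adjusted p = 0.00645). Without the muscle-rich arrays neither 6 h call passed, at 1.43 (adjusted p = 0.907) for CCL24 and -0.50 (adjusted p = 1) for CXCL16, nor did they with the actin covariate, at 1.14 (adjusted p = 0.293) and -0.60 (adjusted p = 0.38). CCL24 at 6 h also did not pass with the dog as a random effect (0.0807), with no dog term (0.177), or without dog 2 (0.0569), dog 3 (0.0675), dog 6 (0.0579) or dog 8 (0.0563).

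The nearest chemokine neighbours did not all follow these genes. In the RefSeq table CCL21, the other CCR7 ligand, lies next to CCL19, and its 48 h difference was 0.02 (adjusted p = 0.953) where CCL19 rose by 2.25. CCL27, a skin T cell attractant on the other side of CCL19, rose by 0.77 at 48 h (adjusted p = 0.0338), a call kept in 9 of 17 alternatives and lost, among others, without dog 1 (0.104), dog 2 (0.113), dog 4 (0.113), dog 7 (0.0525) or dog 8 (0.054). CCL16 lies next to CCL5, with CCL14 and then CCL23 beyond it. CCL16 differed by -0.14 at 48 h (adjusted p = 0.228) where CCL23 rose, and CCL14 has a 48 h fold of 2.2 in the authors' deposited table (their adjusted p = 0.01). CXCL11, next to CXCL10, has no linked probe set and is not used here. In the authors' deposited table the inflammatory chemokines CCL3 and CCL4 have 48 h folds of 2.5 and 3.3, each with p below 0.001, and CCL4 has a 24 h fold of 2.9 with p = 0.032. The authors' deposited table also lists a 48 h fold of -1.5 for CXCL14 (their adjusted p = 0.017), a fall, and folds that did not pass for CCL20 (1.2, their adjusted p = 0.879) and CCL26 (-1, their adjusted p = 0.798).

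**Figure D5:**
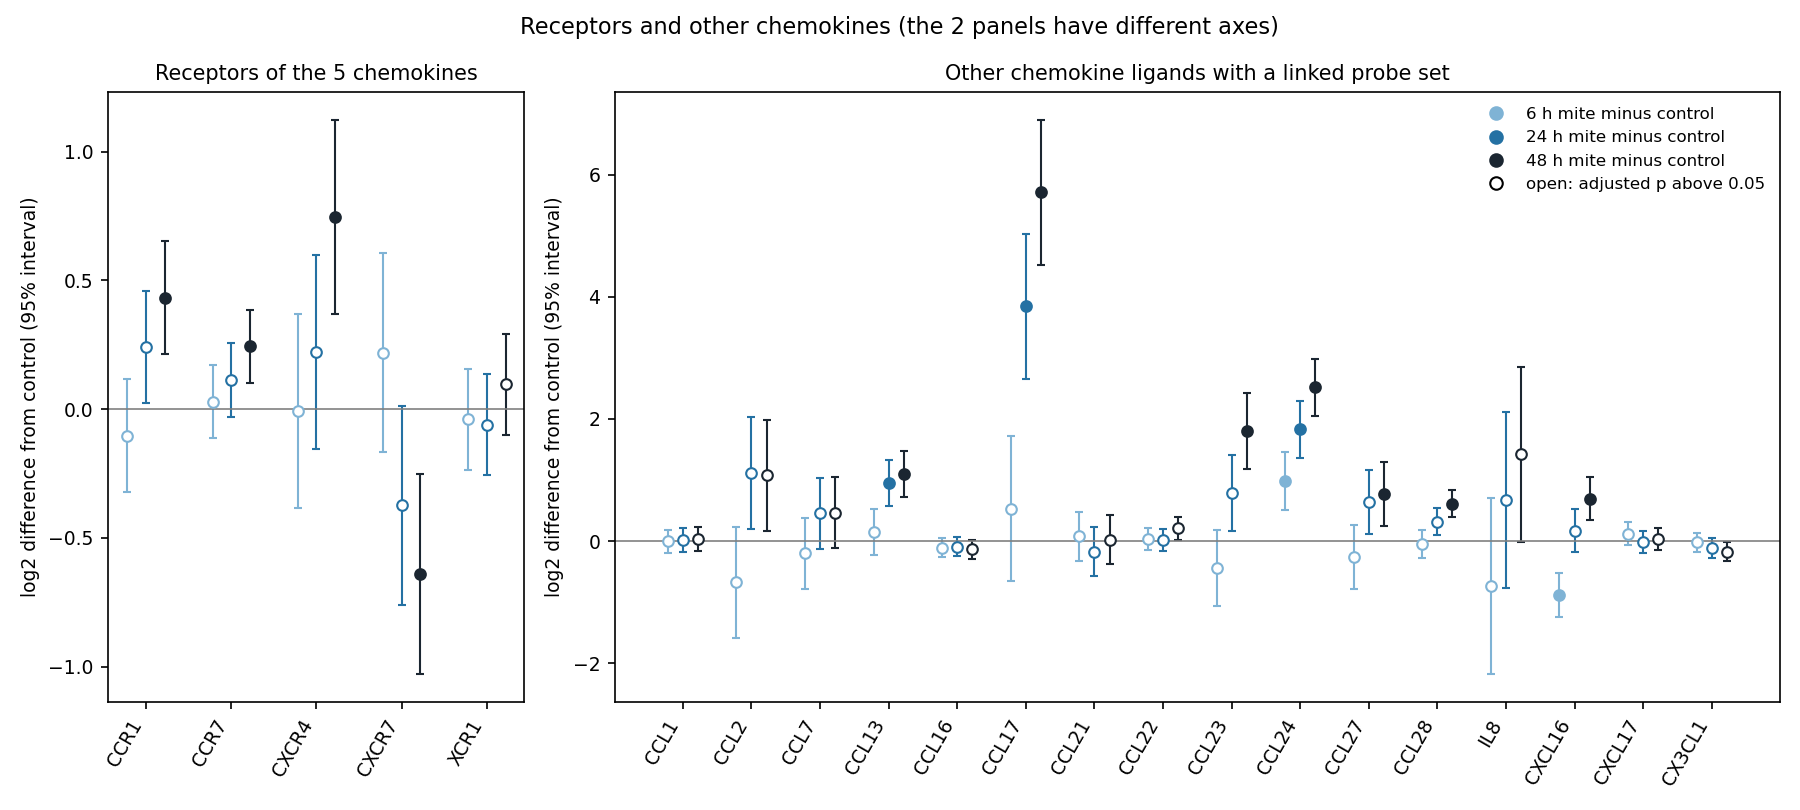
Log2 difference from control skin (vertical axis, 95% interval) for 5 receptors (left) and 16 other chemokine ligands (right) at 6 h, 24 h and 48 h after the mite patch, with open points where the adjusted p was above 0.05. The receptor changes at 48 h stay between -0.64 and 0.75, while CCL17 reaches 5.71.

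Other chemokine receptors had 9 of 18 listed genes linked, of which 4 rose at 48 h and none fell or passed earlier. Of all probe sets 10.6% rose at 48 h. The 4 receptors that rose were CCRL2 (1.59, adjusted p = 6.62e-05), CXCR6 (0.69, adjusted p = 0.00158), CCR6 (0.50, adjusted p = 0.000492) and CCR2 (0.30, adjusted p = 0.0016). CXCR6, which marks tissue T cells, did not pass with the actin covariate (adjusted p = 0.0645). At 48 h CXCR6 averaged 3.18, CCR6 4.25 and CCR2 2.77, all under the array medians, which limits their precision. The filter on dim probe sets removed all 4 receptors.

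CXCL10 is induced by interferons, and both interferon lists were read beside it. Of 8 linked genes induced by interferon gamma, 0 passed at 6 h, 4 rose at 24 h and 6 rose at 48 h, with a median change of 0.73 at 24 h and 0.98 at 48 h. GBP1, a guanylate-binding defence protein, rose by 1.64 at 24 h (adjusted p = 0.000454) and 2.20 at 48 h (adjusted p = 2.16e-06). PSMB9, an immunoproteasome subunit, rose by 1.93 at 48 h (adjusted p = 3.37e-07) and IDO1, which breaks down tryptophan, by 1.98 (adjusted p = 6.45e-06). GBP5 rose by 1.19 at 48 h (adjusted p = 0.000736), a call lost with the actin covariate (adjusted p = 0.076). IFNG, the gene of interferon gamma itself, averaged 3.18 ± 0.14 at 24 h, 3.19 ± 0.13 at 48 h and 3.17 ± 0.14 in the control. It did not pass at any time against the control, at a signal under the array medians, where a change is hard to read.

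Of 11 linked genes induced by type I interferon, 1 fell at 6 h and at 24 h and 2 rose at 48 h, with medians of 0.20 at 24 h and 0.25 at 48 h. Of all probe sets 2.62% fell at 6 h, 5.22% fell at 24 h and 10.6% rose at 48 h. The early falls were of ISG20, an antiviral nuclease, by 1.21 at 6 h (adjusted p = 0.0177) and by 0.98 at 24 h (adjusted p = 0.0269). The 6 h call was lost without the muscle-rich arrays (-0.92, adjusted p = 1), with the actin covariate (-1.08, adjusted p = 0.371) and without dog 1 (0.089) or dog 3 (0.0549). The 24 h call was lost with no dog term (0.056) and without dog 1 (0.0774), dog 5 (0.0653), dog 7 (0.0524) or dog 8 (0.0587). MX2 rose by 0.87 at 48 h (adjusted p = 0.00277) and IFIH1, an RNA sensor, by 0.54 (adjusted p = 0.00827), and neither passed with the actin covariate (adjusted p = 0.057 for MX2 and 0.168 for IFIH1). MX1, another antiviral gene of the list, was 0.70 above the control at 24 h (adjusted p = 0.132) and 0.49 at 48 h (adjusted p = 0.242). Other genes of this list have values in the authors' deposited table alone. There OAS1, OAS2, IFI35 and OASL have 48 h folds of 2.4, 2.7, 2.1 and 1.8, each with p below 0.001. STAT2 also rose there (1.2, their adjusted p = 0.024), IFI6 fell (-1.7, their adjusted p = 0.016) and IFI44 did not pass (1.1, their adjusted p = 0.74).

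Markers of leukocytes known to make or follow these chemokines were read beside them. Of 8 linked T cell markers 1 rose at 24 h and 6 rose at 48 h, and their mean log2 signal was 4.88 ± 0.52 at 48 h and 3.88 ± 0.10 in the control. Of all probe sets 2.97% rose at 24 h and 10.6% at 48 h. CD3D, a T cell receptor subunit, rose by 2.93 at 48 h (adjusted p = 8.31e-08), CD2 by 1.48 (adjusted p = 6.21e-06), CD3G by 1.35 (adjusted p = 4e-05) and CD28 by 1.08 (adjusted p = 0.000507). Of 11 linked cytotoxic lymphocyte markers 4 rose at 48 h and 7 did not pass. Those that rose were GZMB by 1.29 (adjusted p = 0.00297), GZMA by 1.13, CTSW by 0.86 and KLRB1 by 0.78. Among the other 7, PRF1 alone had a lower mean at 48 h than in the control, and it fell from 6 h to 48 h. TBX21 averaged 3.81 at 48 h and 3.81 in the control, and EOMES and KLRG1 averaged higher at 48 h. The 4 that rose averaged under the array medians at 48 h, which limits their precision, and the filter on dim probe sets removed them. GZMB did not pass with the actin covariate (adjusted p = 0.148).

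Of 6 linked markers of cross-presenting dendritic cells, the cells that carry XCR1, 3 rose at 48 h, where 10.6% of all probe sets rose. BATF3, their transcription factor, rose by 2.28 (adjusted p = 1.73e-06), FLT3 by 0.71 (adjusted p = 0.00067) and CLEC9A by 0.37 (adjusted p = 0.0155). CLEC9A did not pass without dog 2 (0.27, adjusted p = 0.0755), without the muscle-rich arrays (0.0654) or with the actin covariate (0.0833). XCR1, IRF8 and SNX22 of this list did not pass at 48 h. In the authors' deposited table CADM1 of this list fell at 48 h (fold -1.7, their adjusted p = 0.003). WDFY4 rose there (1.4, their adjusted p = 0.017) and THBD did not pass (-1.1, their adjusted p = 0.128). Of 10 linked mature dendritic cell markers 7 rose at 48 h, among them IDO1, LAMP3 by 1.28 (adjusted p = 3.23e-05), CD40 by 1.26 and CD86 by 1.23. Of 8 linked macrophage and monocyte markers 7 rose at 48 h, led by AIF1 at 1.84 and TYROBP at 1.69.

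Markers of stromal and other skin cells were read beside CXCL12 and CCL19. Of 6 linked fibroblast markers none passed at 6 h, which is near the share of the whole array, where 0.275% rose and 2.62% fell. Their median change at 6 h was 0.17, and their mean log2 signal was 8.35 ± 0.17 at 6 h against 8.26 ± 0.12 in the control. COL1A2, DCN, LUM and PDGFRB had higher means at 6 h than in the control, and PDGFRA and POSTN had lower ones. At 24 h LUM, a collagen-binding proteoglycan, fell by 0.91 (adjusted p = 0.00353), and PDGFRA by 0.77, COL1A2 by 0.55 and DCN by 0.36 fell too, while POSTN rose. The POSTN rise at 24 h (0.90, adjusted p = 0.0491) passed in 6 of 17 alternatives. PDGFRA, COL1A2 and DCN at 24 h did not pass without the muscle-rich arrays (adjusted p of 0.154, 0.0637 and 0.0921), nor did COL1A2 without dog 5 (0.0531) or dog 7 (0.0506) or DCN without dog 2 (0.0633), dog 4 (0.0845) or dog 5 (0.0616). At 48 h POSTN, a matrix protein of activated fibroblasts, rose by 2.02 (adjusted p = 1.28e-05) and DCN fell by 0.31 (adjusted p = 0.0257). The DCN call was lost without dog 1 (0.0718), dog 2 (0.069), dog 5 (0.0522) or dog 8 (0.0515), and with the muscle (0.064) or actin (0.0949) covariate.

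Of 6 linked endothelial markers 3 rose and 1 fell at 48 h, where 10.6% of all probe sets rose and 9.09% fell. Others of this list, in the authors' deposited table alone, fell at 48 h, namely EMCN (fold -1.9, p below 0.001) and TEK (-1.6, their adjusted p = 0.011). CDH5, TIE1 and ICAM2 did not pass there. The adhesion molecule PECAM1 fell by 0.85 (adjusted p = 9.93e-05), and SELP, a selectin for rolling leukocytes, rose by 0.98 (adjusted p = 0.0179). The SELP call was lost without dog 4 (0.0594), with the dog as a random effect (0.0658), with no dog term (0.123), and with the muscle (0.0668) or actin (0.213) covariate. SELE, another selectin, rose by 0.75 (adjusted p = 0.0172), a call lost without the muscle-rich arrays (0.0648) and with the muscle (0.0629) or actin (0.337) covariate. VWF rose by 0.45 (adjusted p = 0.0126), a call lost without dog 4 (0.0513) or dog 8 (0.0512), with no dog term (0.0621) and with the actin covariate (0.227). None of 3 linked lymphatic endothelial markers passed at any time against the control in limma, CCL21 among them. Of 6 linked adipocyte markers 5 fell at 24 h and 5 at 48 h, where 5.22% and 9.09% of all probe sets fell. LEP was lower by 2.43 and LPL by 1.81 at 48 h, so adipocyte signal moved with the late groups. Its part in the chemokine changes was not tested. Of 5 linked keratinocyte markers DSG3 fell at 6 h (-0.53, adjusted p = 0.0317), a call kept in 6 of 17 alternatives and lost without the muscle-rich arrays (-0.30, adjusted p = 1) and with the actin covariate (-0.33, adjusted p = 0.549), and none passed later. Of all probe sets 2.62% fell at 6 h. Of 9 linked muscle markers MYH2, a myosin heavy chain, fell at 48 h (-4.95, adjusted p = 0.0465), a call kept in 9 of 17 alternatives, and none passed at 6 h or 24 h. A fall of 1 in 9 is near the 9.09% of all probe sets that fell at 48 h.

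The genes most like each chemokine were ranked among 10508 linked genes by Pearson r over the 32 arrays after each dog's mean was subtracted, as a description. CCL5 was most like NMB (r = 0.945), IDO1 (0.944), IL4I1 (0.941) and CCL17 (0.930). CCL19 was most like IL18BP (0.965), TBCB (0.964), SAA1 (0.963) and PCNA (0.958). CXCL10 had weaker matches, led by CCL13 (0.799), MX1 (0.775), GBP1 (0.773) and TAF5 (0.761). CXCL12 was most like LOC608636 (0.923), ABCA6 (0.919), IGF1 (0.908) and SLC43A1 (0.905). XCL1 was most like PLBD1 (0.872), GZMA (0.849), PLOD1 (0.841) and UCP2 (0.838).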

How the data were processed

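The authors deposited log2 signals of 43035 probe sets on 32 arrays, hybridised with biotin-labelled cDNA from total RNA per the labels' protocols. How these values were summarised and normalized, and on which array and genome build, is not given in the sources used here. They also deposited a gene table (17107 genes) whose score per time is a fold against the control with a minus sign for falls, beside an adjusted p-value, written as a bound where small at 48 h.

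The log2 table has no gene names. Each probe set was given a plain linear model of the groups alone, and a gene was linked when its 3 folds (within 0.05) and 3 adjusted p-values (within 0.001) equalled those of exactly 1 probe set, which used 10509 genes (61.4%). Other probe sets of the same genes are unnamed here, and those of CCL5 and CCL19 carry the suffix for probes shared by several transcripts. RefSeq names (assembly UU_Cfam_GSD_1.0) gave neighbours for 4 of the 5 genes, since XCL1 has no entry under that symbol.

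After 175 array controls were left out, limma 3.58.1 in R 4.3.3 fitted 4 groups and a fixed dog block (21 residual degrees of freedom), for 6 comparisons. Tests were 2-sided moderated tests with Benjamini-Hochberg adjustment over 42860 probe sets at 0.05. The labels name the dog, which pairs the arrays. Deviations of same-dog arrays from group means had a mean r of 0.16 over 48 pairs (-0.46 to 0.70, 33 above 0.1). The fit and the linking were tested on simulated data.

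The 5 genes and all lists were chosen with earlier results of these data known. Genes named beside them are the 4 most alike, the receptors, and up to 4 per list with the largest changes that passed at 48 h, or earlier where none did. CCL16, CCL21, CCL27, CXCL16, ISG20, LUM, PDGFRA, COL1A2 and DSG3, and the 6 h and 24 h values, were added after the values were seen. So were PRF1, TBX21, EOMES and KLRG1, and the genes given from the authors' table alone. IFNG, IRF8, SNX22 and PDGFRB are also named outside the rule. Alternatives tried were other dog terms, quantile and median scaling, a filter on dim probe sets, muscle and actin covariates, and leaving out arrays or dogs. Some genes that this rule names are not reported here.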

Additional observations from a re-analysis of the deposited data

Results flagged for a closer look

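Of 20 sets of 8 arrays (5 chemokines in 4 groups), 2 held a value far from the others by Dixon's test, which flags about 1 in 20 groups by chance. CXCL12 in the control of dog 8 was 8.82, below the other controls, and XCL1 at 24 h in dog 5 was 2.82. That XCL1 array also had the lowest median signal of all arrays, 4.63.

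Changes against the control differed between times for all 5 chemokines. From 6 h to 24 h the difference was 1.13 for CCL5, 2.25 for CCL19, 1.89 for CXCL10 and -1.03 for CXCL12. From 6 h to 48 h it was 1.88 for CCL5, 3.09 for CCL19, 1.13 for CXCL10, -0.88 for CXCL12 and 0.68 for XCL1. From 24 h to 48 h CCL19 differed by 0.83. CCL19 lay below the control at 6 h and above it later, and CXCL12 was above the control at 6 h alone.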

How the results depend on the processing

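Against the control, the rises of CCL5, CCL19 and CXCL10 at 24 h and of CCL5 and CCL19 at 48 h passed under every alternative run, as did CCL19 from 6 h to 48 h, and XCL1 at 48 h passed under every alternative except the dim filter, which removed it. For each other value that crossed the threshold or turned, the cause was not tested. Without the replicate block the differences kept their size and lost the test for CCL19 at 6 h (-0.84, adjusted p = 0.0879), CXCL12 at 6 h (0.63, 0.0855), CCL5 from 6 h to 24 h (1.13, 0.0608), CCL19 from 24 h to 48 h (0.83, 0.0968) and CXCL10 from 6 h to 48 h (1.13, 0.066), with 469, 2160 and 463 probe sets past the test at 6 h, at 24 h and from 24 h to 48 h, against 1239, 3509 and 1096 with it. XCL1 at 24 h passed with quantile scaling (0.53), median centring (0.54) and without the 24 h array of dog 5 (0.57), where CCL5 from 6 h to 24 h was 1.07 and the counts were 1915 at 6 h and 636 from 24 h to 48 h. CXCL10 at 48 h passed with the dim filter (1.09). With the muscle covariate CCL19 at 6 h was -0.75, CXCL10 at 6 h 0.080, CCL5 from 6 h to 24 h 1.10 and CXCL10 from 6 h to 48 h 0.86, with counts of 556 at 6 h, 3641 from 6 h to 24 h and 6478 from 6 h to 48 h. With the actin covariate CCL19 at 6 h was -0.46, CXCL10 0.26 and CXCL12 0.64. From 6 h to 24 h CCL5 was 0.43, CXCL10 1.47 and XCL1 -0.051, CCL19 from 24 h to 48 h was 0.62, and from 6 h to 48 h CCL5 was 0.91, CXCL10 0.54, CXCL12 -0.90 and XCL1 0.23. The counts were then 0 at 6 h in limma (4007 at an unadjusted p under 0.05), 5448 at 48 h, 487 from 6 h to 24 h, 314 from 24 h to 48 h and 850 from 6 h to 48 h. Without the muscle-rich arrays, which left 23 arrays and 3 of them at 6 h, CCL19 at 6 h was -0.19 and CXCL12 0.44. From 6 h to 24 h CCL5 was 0.66, CCL19 1.75, CXCL10 2.15 and CXCL12 -0.82, CCL19 from 24 h to 48 h was 0.81, and from 6 h to 48 h CCL5 was 1.43, CXCL10 1.15 and XCL1 0.64. Counts were 0 at 6 h (1835 at an unadjusted p under 0.05 in limma), 2325 at 24 h, 0 from 6 h to 24 h (4835), 207 from 24 h to 48 h and 1604 from 6 h to 48 h. Leaving out each dog gave -0.94 to -0.77 for CCL19, -0.35 to 0.27 for CXCL10 and 0.48 to 0.72 for CXCL12 at 6 h, -0.48 to -0.31 for CXCL12 and 0.44 to 0.56 for XCL1 at 24 h, 0.91 to 1.38 for CXCL10 at 48 h, 0.95 to 1.32 for CCL5 from 6 h to 24 h, 0.74 to 1.02 for CCL19 from 24 h to 48 h and 0.64 to 1.39 for CXCL10 from 6 h to 48 h. Without each dog, 283 to 1878 probe sets passed at 6 h, 2131 to 3278 at 24 h, 4378 to 7618 from 6 h to 24 h and 247 to 1627 from 24 h to 48 h, the lowest without dog 3 in the first 3 and without dog 5 in the last, and the highest at 6 h without dog 4. These counts moved by over 1.5 times without dogs 1, 2, 3, 4, 6 or 8 at 6 h and without dogs 1, 2, 4, 5 or 8 from 24 h to 48 h. Without dog 3 the counts at 24 h (2131) and from 6 h to 24 h (4378) also moved by over 1.5 times. The dog as a random block moved none of the 5 chemokines across the threshold in the 6 comparisons, while CCL24 at 6 h (0.98, adjusted p = 0.0807) and SELP at 48 h (0.98, 0.0658) were among the other named genes that lost it. CCL21 at 48 h turned to -0.012 with quantile scaling and -0.17 with the actin covariate, and leaving out each dog gave -0.059 (without dog 2) to 0.11, with -0.022 without dog 6. With median centring 56.8% of calls at 24 h were higher, against 36.2%, and 68.2% from 6 h to 24 h, against 48.8%. The correlations across dogs were rerun with median centring alone, and none of the 10 pairs passed there either. XCL1, and CCL5 in the control, lay near or under the array median, which limits their precision. The same holds for other named genes, among them CCR1, CCR7, XCR1, CXCR6, CCR6, CCR2, CLEC9A, GZMA, GZMB, CTSW and KLRB1.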
